A study of Rattus norvegicus with 14 samples.

Results

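The genes described here build microtubules, carry cargo along them or bind to them: the tubulins, the kinesin and dynein motors, the dynactin complex and the main microtubule-associated proteins. Membership was set by gene symbol, and the symbols were chosen with earlier results of these data known. Every probe set with a single platform symbol that starts with Tuba, Tubb, Tubg, Kif, Klc, Dync, Dynl, Dctn, Actr1, Map1a, Map1b or Mapre was taken, as were Map2, Map4, Map6, Mapt, Ckap5 and Pafah1b1. This gave 97 of 15866 probe sets, which stand for 69 genes. A probe set is a group of short oligonucleotides on the array that together measure 1 transcript or part of it.

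Messenger RNA was measured in the dentate gyrus, the entrance region of the hippocampus, which was dissected from 14 male Long-Evans rats, young animals of 3 to 4 months. All of them had been trained in a standard water maze 2 to 3 weeks before, and then had 1 session of 8 trials, 8 min apart, in a new pool at another site. The 7 rats of the learning group swam among orienting cues to a visible platform that stayed in place, whereas for the 7 rats of the control group the visible platform was moved from trial to trial and no useful cue was given. Both groups had a probe swim of 90 s without a platform 1 h after training and were killed directly after it. The comparison thus asks which transcripts differ once a place could be learned, with the trials, their spacing and the probe swim shared. The cues and the moving of the platform differed along with it, and swim paths and times were not used here.

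Microtubules are hollow polymers of alpha and beta tubulin that give axons and dendrites their shape and serve as tracks. Kinesins mostly walk towards the growing plus end, which points to the axon tip, and cytoplasmic dynein, helped by dynactin, walks back towards the cell body. Microtubule-associated proteins such as MAP2 in dendrites and tau in axons bind along the tracks, and other proteins sit on the growing ends and set how fast they extend.

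All differences below are learning minus control on the log2 scale of the deposited values, so that a difference of 1 would be a doubling, and each error is a standard error from limma with 7 rats per group unless a range is named. Only probe sets whose values averaged 4 or more were tested. Of the members, 81 probe sets of 60 genes passed this filter and 16 did not. Of those 16, 11 belong to kinesins, among them Kif15, Kif18b, Kif20a, Kif22 and Kifc1, which are best known from cell division. Their means lay between 1.98 and 3.50, close to the background of the array, and no difference among them was larger than 0.09. The tested member nearest to the filter was Kif13a (1390480_at), with a mean of 4.05. Another 7 probe sets carry a member symbol together with further symbols and were left out. They include the one shared by Tuba1a, Tuba1b and Tuba1c, the main alpha tubulins of neurons, which are therefore not described.

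The arrays were alike in scale, with medians of 5.09 to 5.12. Of the granule cell markers, 3 of 7 were tested (Calb1, Prox1 and Dsp). Their mean was 9.15 ± 0.08 (SD, n = 7, range 8.99 to 9.23) in control rats. In learning rats it was 9.31 ± 0.09 (SD, n = 7, range 9.13 to 9.38), a difference of 0.16. Dsp differed by 0.44, Prox1 by 0.08 and Calb1 by -0.03. Of 8 markers of the neighbouring CA1 field, 5 were tested, and 4 of these 5 were higher in the learning group. Their mean was 7.28 ± 0.32 (SD, n = 7, range 6.88 to 7.92) in control rats. In learning rats it was 7.60 ± 0.16 (SD, n = 7, range 7.39 to 7.79), so this mean differed by 0.32 along with the groups. The CA1 markers did not share this difference evenly. Wfs1 differed by 0.95 in its brighter probe set, Mpped1 by 0.37 and Fibcd1 by 0.31, whereas Lmo3 differed by 0.002 and Itpka by -0.05. Of these, only Wfs1 had an unadjusted p below 0.05 (limma). Pou3f1 was the CA1 marker on the array that did not pass the filter. Meningeal markers, of which 6 of 7 were tested, varied widely in both groups, with means of 6.73 ± 1.36 (SD, n = 7, highest 8.39) in control and 6.30 ± 1.37 (SD, n = 7, highest 8.45) in learning rats. Choroid plexus markers, of which 3 of 6 were tested while Folr1 and Kl did not pass the filter, averaged 6.37 ± 0.35 (SD, n = 7, range 5.91 to 6.79) in control and 5.82 ± 0.10 (SD, n = 7, range 5.68 to 5.98) in learning rats. Of these, Ttr, the transthyretin gene, was 6.07 to 8.68 in control and 5.52 to 5.92 in learning rats, without overlap, whereas Enpp2 differed by -0.04 and Kcne2 by 0.18. The part of the choroid plexus markers in the results below was not tested. In tissue RNA such as this, fewer cells of a type and less RNA per cell cannot be told apart.

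No member changed at an adjusted p below 0.05 by limma with Benjamini-Hochberg adjustment, and neither did any of the 9387 tested probe sets. At an unadjusted p below 0.05 the members gave 13 of 81, of which 9 were higher in learning rats and 4 lower. Over all tested probe sets the share at this level was 13.1%, against 16.0% of the members. Split by direction, 6.43% of all tested probe sets were higher, against 11.1% of the members, and 6.67% were lower, against 4.94%. The members as a whole lay on the centre of the data: 45 were higher and 36 lower, and their median difference was 0.01, where the median of all tested probe sets was 0.01 as well. Differences of at least 0.25 in size were found for 14 members, or 17.3%, against 8.17% of all tested probe sets. Of these 14, 9 were higher, where 3.65% of all tested probe sets were, and 5 lower, where 4.52% were. The median spread between rats of a group was 0.17 for the members and 0.16 for all tested probe sets. Because no member passed the adjusted threshold, the members below are given by their values, and none is said to have changed.

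**Figure D1:**
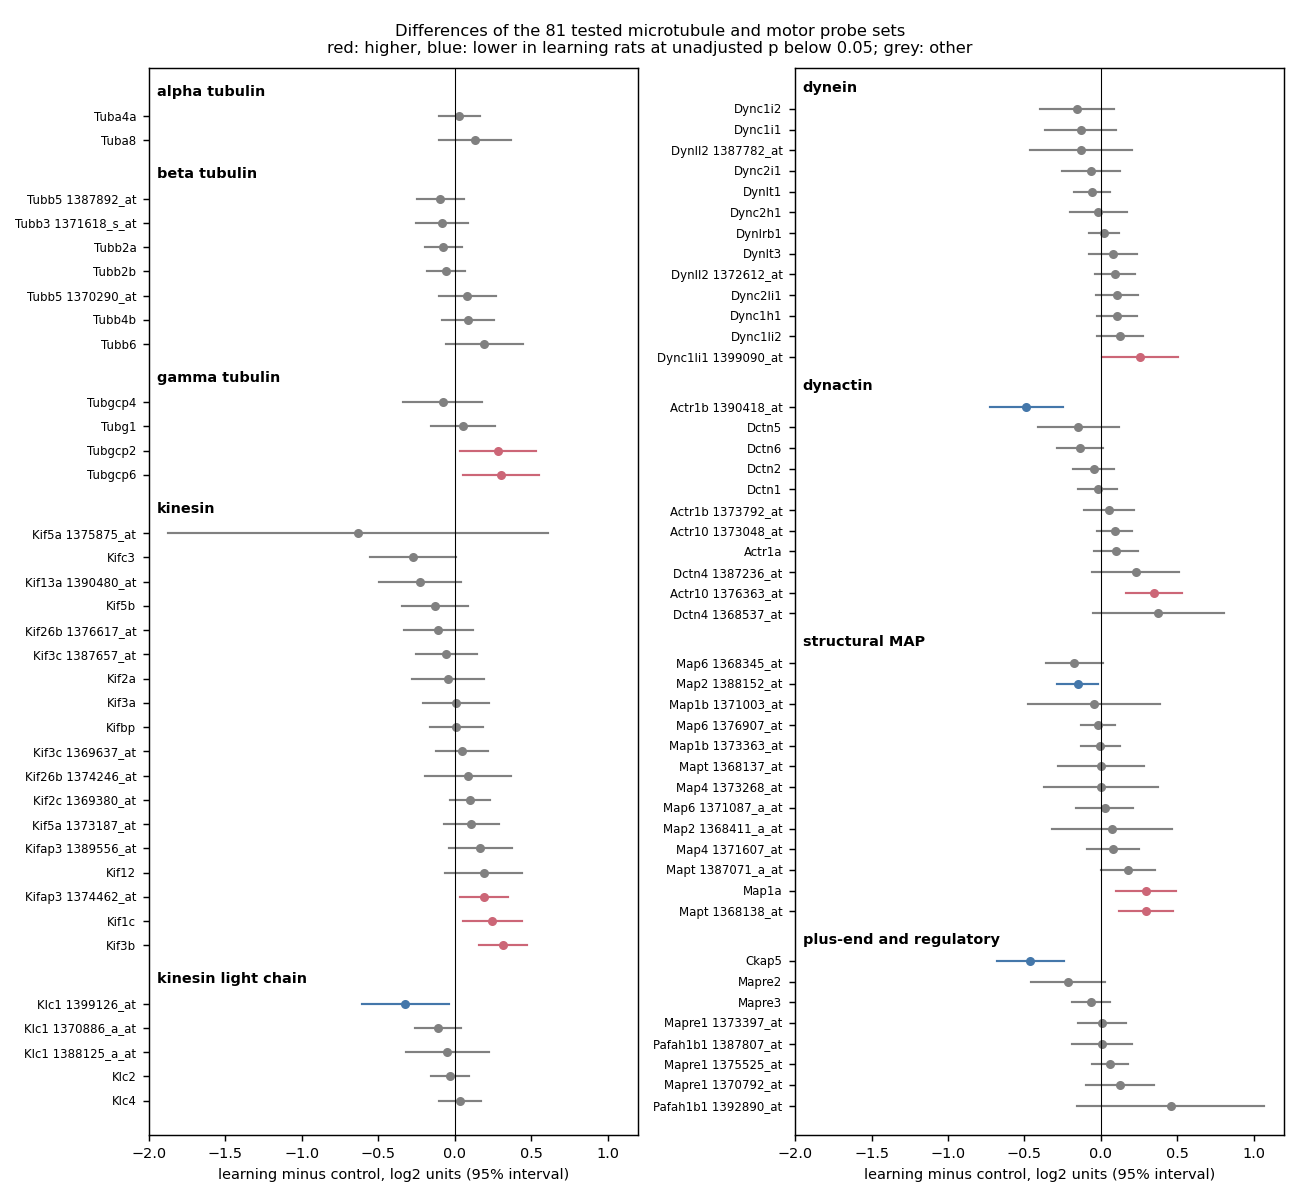
Difference between learning and control rats (learning minus control, log2 units) for each of the 81 tested probe sets, grouped by role, with points for the fitted difference and bars for its 95% interval. The tubulins lie near 0, single members of dynactin, the kinesins, the structural microtubule-associated proteins and the plus-end group lie away from it on either side, and a probe set of Kif5a has by far the widest interval.

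The tubulins themselves, the building blocks, showed no difference beyond the spread between rats. All 9 tested alpha and beta tubulin probe sets lay between -0.09 and 0.19, with 5 higher and 4 lower, and none reached an unadjusted p below 0.05. Their smallest adjusted p was 0.499 (limma). Tubb2a, a beta tubulin abundant in neurons, was the brightest: its level was 13.00 to 13.21 with a median of 13.07 in control rats and 12.80 to 13.13 with a median of 13.03 in learning rats. The ranges overlapped, with 3 control rats above every learning rat and 2 learning rats below every control rat, and the difference was -0.07 ± 0.06. For Tuba4a, an alpha tubulin of mature cells, control rats had 11.57 to 11.90 with a median of 11.77 and learning rats 11.65 to 11.99 with a median of 11.83. That difference, 0.03 ± 0.06, had a 95% interval of -0.10 to 0.16.

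Tuba8, a less widely expressed alpha tubulin, gave 8.39 to 8.75 (median 8.67) in control and 8.31 to 9.14 (median 8.72) in learning rats. The learning rats spread wider, since 3 of them lay above every control rat and 1 below every control rat, and the difference was 0.13 ± 0.11. Tubb6, a beta tubulin better known outside neurons, had the smallest p of the tubulins. Its level was 4.68 to 5.54 (median 5.43) in control and 5.19 to 5.66 (median 5.51) in learning rats, with a difference of 0.19 ± 0.12 and an unadjusted p of 0.124 (limma). Tubb5 (1387892_at) gave 10.70 to 10.87 (median 10.82) in control and 10.46 to 11.002 (median 10.72) in learning rats, and here 3 learning rats lay below all controls while 1 lay above them. Tubb3, the neuron-specific beta tubulin, differed by -0.08, Tubb2b by -0.06 and Tubb4b by 0.09.

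Gamma tubulin seeds new microtubules, and the proteins of its ring complex, Tubgcp2 to Tubgcp6, hold it in place. Of the 4 tested probe sets of this group 2 were higher at an unadjusted p below 0.05, both of them ring proteins. Over all tested probe sets 6.43% were higher at this level. Tubgcp6 gave 5.86 to 6.62 (median 6.35) in control and 6.40 to 6.92 (median 6.59) in learning rats. Most learning rats lay within the upper part of the control range, and 2 lay above it. The difference was 0.30 ± 0.12, with an adjusted p of 0.299 (limma). Tubgcp2 gave 6.06 to 6.90 (median 6.30) in control and 6.53 to 6.78 (median 6.64) in learning rats, so that the learning rats fell in a narrow band inside the control range. That difference was 0.28 ± 0.12, with an adjusted p of 0.338 (limma). With the 3' to 5' difference of beta-actin, a sign of RNA integrity, as a covariate, the unadjusted p of Tubgcp2 was 0.0686 (limma). The Tubgcp2 difference was 0.26 to 0.31 over all alternative settings without a left-out array. The beta-actin difference itself was 1.32 ± 0.09 (SD, n = 7) in control and 1.41 ± 0.11 (SD, n = 7) in learning rats. Tubg1, gamma tubulin itself, differed by 0.05 ± 0.10, with 7.05 to 7.70 (median 7.22) in control and 7.04 to 7.44 (median 7.35) in learning rats. Tubgcp4 differed by -0.08 ± 0.12, with 5.15 to 6.07 (median 5.58) in control and 5.23 to 5.68 (median 5.54) in learning rats. The 2 ring proteins that were higher were thus not joined by the other ring protein tested, nor by gamma tubulin.

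Among the kinesins, 18 probe sets of 14 genes were tested, with 11 higher, 7 lower and a median difference of 0.03. At an unadjusted p below 0.05, where 6.43% of all tested probe sets were higher, there were 3, all higher: Kif3b, Kif1c and Kifap3. Kif3b is a motor subunit of a kinesin that pairs with Kif3a and carries vesicles in dendrites and material into cilia. The level of Kif3b (1374428_at) in control rats was 7.68 to 7.98, with a median of 7.82, and in learning rats 7.88 to 8.36, with a median of 8.17. All but 1 learning rat lay above the highest control rat, and the exception, learning rat 1, sat within the control range. The difference was 0.32 ± 0.07, with a 95% interval of 0.16 to 0.47, which is a level 1.25-fold higher. Its unadjusted p was 0.000585, number 35 of all tested probe sets, and its adjusted p 0.153 (limma). With the mean of the CA1 markers as a covariate the difference was 0.24, with an unadjusted p of 0.0136.

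The partners of Kif3b did not all follow it. Kifap3, the adaptor subunit that links this motor to cargo, was measured by a pair of probe sets, both higher in learning rats. For Kifap3 (1374462_at) control rats had 9.23 to 9.67 (median 9.55) and learning rats 9.54 to 9.90 (median 9.74), and 5 learning rats lay above every control rat. The difference was 0.19 ± 0.07, with an adjusted p of 0.302 (limma). The other Kifap3 probe set (1389556_at) differed by 0.17 ± 0.10, so the pair gave nearly the same value. Kif3a, the obligate motor partner, differed by 0.01, and the neuronal alternative Kif3c by 0.05 and -0.05 in its probe sets. In all, 5 of the 6 probe sets of this motor were higher, against 51.7% of all tested probe sets, and their median difference was 0.11. An unadjusted p below 0.05 was found for 2 of the 6, against 13.1% of all tested probe sets. Those 2 are Kif3b and Kifap3 (1374462_at), already named for their small p. This motor was not a role group of its own, so these counts only describe it. With the mean of the CA1 markers as a covariate the unadjusted p of Kifap3 (1374462_at) was 0.0600 (limma). The difference of this probe set was 0.18 to 0.19 over all alternative settings without a left-out array.

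Kif1c, a motor that carries dense-core vesicles and other cargo, gave 7.28 to 7.57 (median 7.39) in control and 7.37 to 7.96 (median 7.59) in learning rats. The upper 4 learning rats lay above all control rats and the other 3 within their range. The difference was 0.24 ± 0.09, with an adjusted p of 0.289 (limma). The heavy chains of conventional kinesin, the main motor of fast axonal transport, gave no common direction: Kif5b differed by -0.13 and Kif5a by 0.11 in its brighter probe set (1373187_at). Kifbp, a kinesin-binding protein and the brightest probe set of the group, lay at 10.11 to 10.37 (median 10.20) in control and 9.92 to 10.53 (median 10.25) in learning rats, a difference of 0.01 ± 0.08. Kifc3, a minus-end motor, differed by -0.28 ± 0.13, with an unadjusted p of 0.0553 (limma).

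The other probe set of Kif5a (1375875_at) had the largest difference of any member, -0.63, and also the largest spread. In control rats 1 to 7 its level was 6.42, 8.40, 6.35, 6.29, 8.21, 10.01 and 6.17, and in learning rats 1 to 7 it was 6.49, 6.31, 7.93, 5.92, 6.23, 8.18 and 6.39. Most rats of both groups thus lay close to 6, while control rats 2, 5 and 6 and learning rats 3 and 6 stood well above them. Its spread within groups was 1.23, higher than in 99.9% of all tested probe sets, the standard error was 0.58 and the 95% interval ran from -1.87 to 0.61. The brighter Kif5a probe set did not show these high rats: over the 14 arrays it lay between 9.68 and 10.26.

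Kinesin light chains join conventional kinesin to its cargo. Of 5 tested probe sets 4 were lower in learning rats, with a median of -0.05. Klc1 (1399126_at) alone had an unadjusted p below 0.05. Its level was 7.72 to 8.10 (median 7.84) in control rats, whereas the learning rats fell into a low set of 4 between 7.21 and 7.44 and a set of 3 between 7.90 and 7.96 within the control range. The difference was -0.32 ± 0.13, with an adjusted p of 0.335 (limma), and the SD was 0.36 in learning against 0.13 in control rats. Its unadjusted p was below 0.05 in 19 of 25 alternative settings or left-out arrays, and 0.0899 with the beta-actin covariate. The brightest Klc1 probe set (1370886_a_at) gave 12.02 to 12.23 (median 12.15) in control and 11.68 to 12.16 (median 12.08) in learning rats, a difference of -0.11 ± 0.07, and the remaining one differed by -0.05. Klc1 transcripts are known to end in several alternative ways, and the part of the transcript that each probe set reads was not analysed here. Klc2 lay at 8.55 to 8.83 (median 8.61) in control and 8.43 to 8.77 (median 8.61) in learning rats.

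Of the dynein probe sets, 13 were tested, with 7 higher and 6 lower and a median difference of 0.02. The chains of the motor that moves cargo towards the cell body gave small positive values for the heavy chain and both light intermediate chains. Dync1h1, the heavy chain that holds the motor domain, gave 9.81 to 10.002 (median 9.90) in control and 9.86 to 10.19 (median 10.01) in learning rats, a difference of 0.11 ± 0.06. Dync1li2 gave 10.88 to 11.21 (median 11.01) in control and 10.94 to 11.35 (median 11.17) in learning rats, a difference of 0.13 ± 0.07. Dync1li1 (1399090_at), the other light intermediate chain, was the only dynein probe set at an unadjusted p below 0.05.

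The level of Dync1li1 (1399090_at) was 10.21 to 10.88 with a median of 10.34 in control and 10.48 to 10.94 with a median of 10.72 in learning rats. Ranges overlapped widely, and only 1 learning rat lay above all controls. The difference was 0.26 ± 0.12, and p was 0.0438 before adjustment and 0.364 after it (limma), and the unadjusted p was below 0.05 in 13 of 25 alternative settings or left-out arrays. The intermediate chains, which connect the heavy chain to dynactin, went the other way, by -0.13 for Dync1i1 and -0.16 for Dync1i2, neither beyond its spread. The dynein of cilia gave -0.02 for its heavy chain Dync2h1, -0.07 for Dync2i1 and 0.11 for Dync2li1. Dynlrb1, a light chain and the brightest dynein probe set, was among the least variable members: 11.42 to 11.57 (median 11.49) in control and 11.40 to 11.61 (median 11.52) in learning rats.

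Dynactin is the large complex that lets dynein take long runs. It has a short actin-like filament, built mainly of Actr1a with some Actr1b and capped by Actr10, and a projecting arm of Dctn1. All 11 of its probe sets were tested, with 6 higher, 5 lower and a median difference of 0.05. Of its filament probe sets only Actr1b (1390418_at) was lower, while those of Actr1a and Actr10 and the other of Actr1b were higher. Actr1b (1390418_at) gave 8.92, 9.29, 8.92, 8.81, 9.03, 8.61 and 8.98 in control rats 1 to 7. In learning rats 1 to 7 it gave 8.67, 8.57, 8.34, 8.79, 8.28, 8.37 and 8.12. Only control rat 6 reached down into the learning range, and 5 of 7 learning rats lay below every control rat. The difference was -0.49 ± 0.11, with a 95% interval of -0.73 to -0.25, which is a level 1.40-fold lower. Its unadjusted p was 0.000545 and its adjusted p 0.153 (limma).

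The other Actr1b probe set (1373792_at) differed by 0.05 ± 0.08, so the gene has no single value on this array. Actr1a, the main filament subunit, differed by 0.10. Actr10 (1376363_at), the cap of the filament, was 6.83 to 7.29 with a median of 7.18 in control and 7.29 to 7.64 with a median of 7.46 in learning rats. Every learning rat lay above every control rat, although the lowest learning and the highest control rat were nearly equal, and once each array was centred on its median they overlapped. The difference was 0.35 ± 0.09, with a 95% interval of 0.16 to 0.53, a p of 0.00112 before adjustment and of 0.179 after it (limma). The brighter Actr10 probe set (1373048_at) pointed the same way with 0.09 ± 0.05.

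None of the other dynactin probe sets had an unadjusted p below 0.05. Dctn1, the arm that contacts dynein and the microtubule, lay at 10.90 to 11.09 (median 10.99) in control and 10.80 to 11.17 (median 11.03) in learning rats, a difference of -0.02 ± 0.06. Dctn6, at the pointed end of the filament, was 9.36 to 9.67 (median 9.44) in control and 9.11 to 9.51 (median 9.39) in learning rats, with a difference of -0.14 ± 0.07. Dctn2, of the shoulder that joins arm and filament, differed by -0.05 and Dctn5, another pointed-end subunit, by -0.15. Dctn4 was higher in both of its probe sets, by 0.38 ± 0.20 and 0.23 ± 0.13, but neither reached an unadjusted p below 0.05. In the first of them control rats alone ran from 6.17 to 7.77.

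The structural microtubule-associated proteins gave 7 higher and 6 lower of 13 probe sets, with a median difference of 0.00. Mapt encodes tau, which binds along axonal microtubules. The Mapt probe set 1368138_at gave 8.97 to 9.23 with a median of 9.03 in control rats and 9.18 to 9.70 with a median of 9.27 in learning rats. In 5 learning rats the level was above that of every control rat, and learning rats 5, 6 and 7 stood highest. The difference was 0.30 ± 0.08, with a 95% interval of 0.12 to 0.47, a p of 0.00264 before adjustment and of 0.210 after it (limma). The brightest Mapt probe set (1387071_a_at) followed it, with 12.88 to 13.22 (median 13.14) in control and 13.02 to 13.57 (median 13.18) in learning rats. Its difference was 0.17 ± 0.08, and over the 14 arrays the correlation of these probe sets was 0.76, which is given as a description, since they share arrays and gene. The remaining Mapt probe set (1368137_at) was at -0.00 and did not follow either.

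Map1a, a large protein of mature dendrites and axons, was 10.21 to 10.55 with a median of 10.32 in control and 10.43 to 10.97 with a median of 10.57 in learning rats. The upper 4 learning rats lay above every control rat. The difference was 0.29 ± 0.09, with a 95% interval of 0.10 to 0.49 and an adjusted p of 0.233 (limma). Its relative Map1b, which is typical of growing neurites, differed by -0.00 and -0.05. Map2, the classical dendritic protein, was lower in its brightest probe set (1388152_at), with 12.40 to 12.65 (median 12.48) in control and 12.13 to 12.48 (median 12.39) in learning rats. That difference was -0.15 ± 0.06, with an adjusted p of 0.332 (limma). With CA1 markers as a covariate the unadjusted p of this probe set was 0.103 (limma). Its difference was -0.17 to -0.14 over all alternative settings without a left-out array. The other Map2 probe set differed by 0.07. Map6, which makes microtubules resistant to cold, differed by -0.17 ± 0.09 in its brightest probe set.

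Ckap5 had the smallest p of all members. It encodes a polymerase that adds tubulin to the plus end. The Ckap5 level was 8.15, 8.24, 8.33, 8.80, 8.43, 8.36 and 8.18 in control rats 1 to 7. In learning rats 1 to 7 it was 7.92, 8.14, 7.81, 7.94, 7.83, 8.06 and 7.56. No learning rat reached the lowest control rat, although learning rat 2 and control rat 1 were only just apart. The difference was -0.46 ± 0.10, with a 95% interval of -0.68 to -0.24, which is a level 1.38-fold lower. Its unadjusted p was 0.000446, number 24 of all tested probe sets, and its adjusted p 0.153 (limma). Groups without overlap were found for 2 of the 81 members, Ckap5 and Actr10, and for 0.405% of all tested probe sets. Without control rat 6 this count was 4, with Actr1b (1390418_at) and Map1a added, and the share of all tested probe sets was 0.906%.

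Other proteins of the growing end differed less. Mapre2, an end-binding protein, lay at 7.93 to 8.55 (median 8.41) in control and 7.82 to 8.40 (median 8.19) in learning rats, with a difference of -0.22 ± 0.11 and an unadjusted p of 0.0753 (limma). Mapre3, the end-binding protein of neurons, was 9.15 to 9.28 (median 9.19) in control and 8.90 to 9.30 (median 9.14) in learning rats. The probe sets of Mapre1 differed by 0.01 to 0.13. Pafah1b1, which encodes the dynein regulator LIS1, had a large but poorly determined difference in 1 probe set (1392890_at), with 6.25 to 8.28 (median 6.86) in control and 6.43 to 8.03 (median 7.42) in learning rats. The difference was 0.46 ± 0.29, and the 95% interval, -0.15 to 1.07, included 0. Its other probe set was at 0.01.

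**Figure D2:**
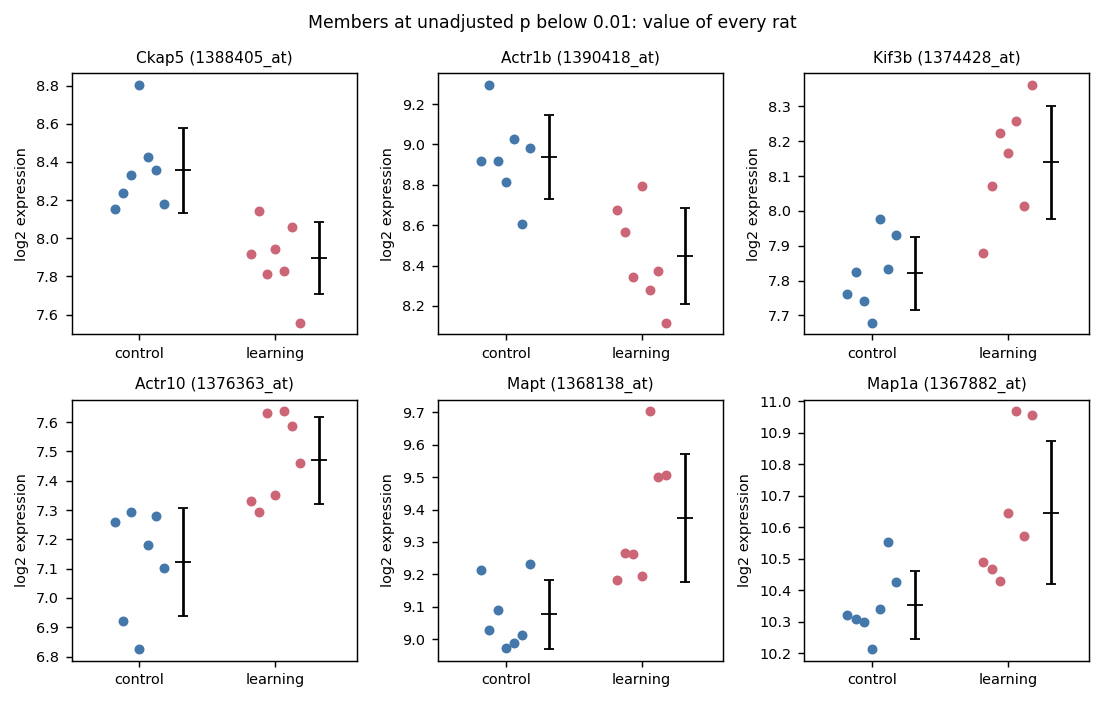
Log2 expression of the 6 members with an unadjusted p below 0.01 in each of the 7 control (blue) and 7 learning (red) rats, with bars for the group mean and SD. Each panel has its own scale: Ckap5 and Actr10 show no overlap of the groups, Actr1b and Kif3b overlap by single rats, and in Mapt and Map1a part of the learning rats stands above the controls.

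These 6 probe sets are all the members at an unadjusted p below 0.01, a level that 3.93% of all tested probe sets reached, against 7.41% of the members. Of the 6, 4 were higher (1.89% of all tested probe sets) and 2 lower (2.05%). Ckap5, Actr1b (1390418_at) and Actr10 (1376363_at) kept an unadjusted p below 0.01 in all 25 alternative settings and left-out arrays, Kif3b in 24, Mapt (1368138_at) in 23 and Map1a in 18. Their adjusted p stayed above 0.05 throughout: the lowest values reached were 0.110 for Ckap5, 0.0815 for Actr1b, 0.114 for Kif3b, 0.110 for Actr10, 0.144 for Mapt and 0.158 for Map1a. With the CA1 marker mean as a covariate the differences were -0.43 for Ckap5, -0.53 for Actr1b and 0.37 for Actr10, close to those without it. They were 0.28 for both Mapt and Map1a, and 0.24 for Kif3b. For Actr1b and Actr10 the highest unadjusted p came with the beta-actin covariate, 0.00367 and 0.00679 (limma). Over all alternative settings without a left-out array the difference was -0.53 to -0.39 for Actr1b and 0.30 to 0.37 for Actr10.

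Where a gene has more than 1 tested probe set, the agreement within it could be measured. Ckap5, Kif3b and Map1a have only 1 tested probe set each, so for them it could not. Of 17 member genes with several tested probe sets, 9 had probe sets on both sides of 0, or 52.9%, and over the whole array 51.6% of 922 such genes did. None of the 17 had more than 1 probe set at an unadjusted p below 0.05, which 45 of the 922 genes had. Kifap3 agreed best of the 17, with differences of 0.17 and 0.19, and Map1b, Map4 and Kif3c lay within about 0.10 of each other. Actr1b, Klc1, Actr10, Mapt and Map2 each had 1 probe set with an unadjusted p below 0.05 and at least 1 other with a difference of 0.09 or less in size.

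**Figure D3:**
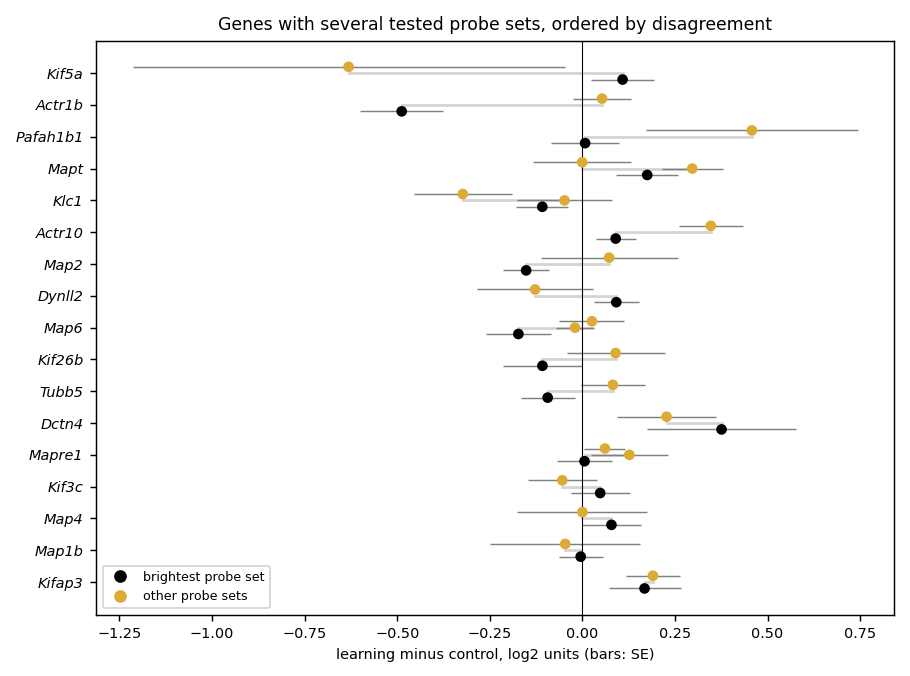
Learning minus control difference (log2 units, bars for the standard error) of each tested probe set in the 17 member genes that have several, with the brightest probe set in black and the others in yellow. Genes are ordered by how far their probe sets lie apart, from Kif5a, whose outlying probe set has the widest error bar, down to Kifap3, where they nearly coincide.

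Whether the probe sets of a gene differ from each other was tested by taking, in each rat, the brighter minus the dimmer value and comparing this quantity between groups, over all 1338 such pairs on the array. At an unadjusted p below 0.05 there were 3 of the 25 member pairs, Actr1b, Actr10 and Tubb5, against 15.8% of all pairs. For Actr1b the within-rat difference ran from 0.41 to 0.92 (median 0.61) in control and from -0.32 to 0.40 (median 0.08) in learning rats. The groups did not overlap, as in 0.822% of all pairs, although they nearly touched. The Actr1b contrast was -0.54 ± 0.12, with a 95% interval of -0.80 to -0.28 and an unadjusted p of 0.000404, number 8 of the 1338. Its adjusted p was 0.0625 (limma), against 7 pairs on the array, or 0.523%, that passed 0.05, none of them members. It was 0.0294 to 0.213 over the alternatives, and below 0.05 without learning rat 1 (0.0417), without learning rat 2 (0.0294) and with a filter at 5 (0.0406). For Actr10 the contrast was -0.26 and for Tubb5 -0.18, with adjusted p of 0.295 and 0.300 (limma).

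With 1 value per gene, the picture depended on how probe sets were joined. Taking the brightest probe set, 9 of 60 member genes had an unadjusted p below 0.05, 6 higher and 3 lower, against 12.8% of all 6697 genes. Taking the mean of a gene's probe sets, 13 of 60 did, 10 higher and 3 lower, against 12.5% of all genes.

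Rats differed in how their members lay. The number of members above their own mean over the 14 arrays was 33 to 45 of 81 in control rats and 29 to 52 in learning rats. Learning rat 4, with 52, and learning rat 7, with 49, stood highest, and learning rat 1, with 29, was the lowest of all 14. The median size of a member's deviation was 0.07 to 0.12 in control and 0.08 to 0.12 in learning rats, so no rat stood apart by its spread.

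**Figure D4:**
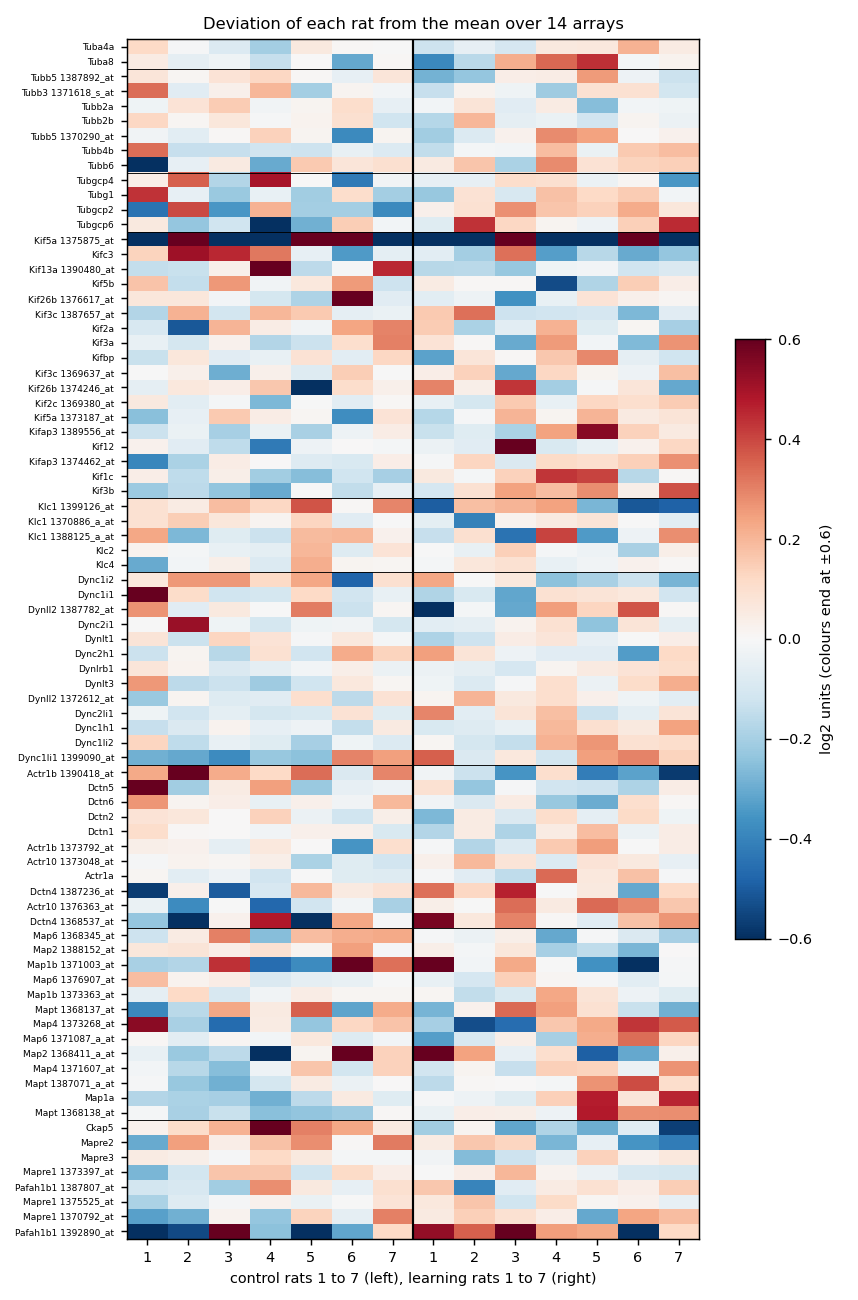
Deviation of each of the 81 tested probe sets (rows, by role) from its mean over the 14 arrays, in log2 units with colours ending at 0.6, for control rats 1 to 7 on the left and learning rats 1 to 7 on the right. Most rows have no division between the groups, blocks of 1 colour on either side appear for Ckap5, Actr1b (1390418_at), Kif3b and Actr10 (1376363_at), and Kif5a (1375875_at) and Pafah1b1 (1392890_at) vary strongly in both groups.

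Genes that act on microtubules or link motors to cargo, but fall outside the symbols above, were looked at as fixed lists. Of the tubulin folding and modification genes, 12 of 17 were measured above the filter, each by 1 probe set, and 5 were higher and 7 lower, with a median difference of -0.01. Over all tested probe sets 13.1% had an unadjusted p below 0.05, and 6.43% were higher at this level (limma). Of the 12 genes of this list, 3 had an unadjusted p below 0.05, all higher. They include Ttll7, an enzyme that adds glutamate chains to tubulin, with 0.20 ± 0.07, and Svbp, the partner of the enzymes that remove tubulin's last tyrosine, with 0.31 ± 0.13. Ttl, the ligase that puts this tyrosine back, was the other, with 0.16 ± 0.07. Their adjusted p were 0.262, 0.349 and 0.372 (limma).

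Of the microtubule regulators, 17 of 28 genes were tested by 20 probe sets, with 8 higher, 12 lower and a median of -0.06. An unadjusted p below 0.05 was found for 5 of the 20, against 13.1% of all tested probe sets. Of these 5, 3 were higher and 2 lower. Stmn4, a stathmin that binds free tubulin, differed by -0.17 ± 0.05 and Clasp2, which anchors plus ends, by 0.12 ± 0.04, with adjusted p of 0.236 and 0.269 (limma). Of the motor adaptors and cargo linkers, 16 of 25 genes were tested by 18 probe sets, with 6 higher, 12 lower and a median of -0.01. Only Rhot1, which ties mitochondria to kinesin and dynein, had an unadjusted p below 0.05, with a difference of 0.11 ± 0.05 and an adjusted p of 0.338 (limma). Bicd2, a dynein adaptor, differed by -0.13 ± 0.07.

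Neurofilament genes, which build the other long polymer of axons, gave 5 higher and 1 lower of 6 probe sets from 4 of 5 genes. None had an unadjusted p below 0.05: Ina, which encodes alpha-internexin, differed by -0.24 ± 0.13 and Nefh, the heavy chain, by 0.14 ± 0.11.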

How the data were processed

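Total RNA of each rat's dentate gyrus was hybridised to 1 Affymetrix RAE230A array, per the labels' protocols, and the titles number the arrays as biological replicates 1 to 7 of each group. The deposited values are log2 expression per probe set. The submitters' processing notes name GCRMA as the authors' tool. The sources used here name neither its version nor its settings. It corrects background by probe sequence and compresses differences near background. Symbols came from the platform annotation, and all 97 member gene IDs were in the current rat table (assembly GRCr8), with 0 symbols differing. No coordinates were used.

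Probe sets with a mean log2 of at least 4, controls left out, were fitted with limma 3.58.1 (lmFit, eBayes, no covariate, all 14 arrays) in R 4.3.3, with two-sided p adjusted by Benjamini-Hochberg over all 9387. The code was tested on simulated data. The labels give no batch. The number of arrays limits the precision. Pairs of probe sets were fitted the same way, a test added after the data had been seen. The members, roles and lists were chosen with earlier results of these data known. Values per rat are given for members with an unadjusted p below 0.01 or groups that do not overlap, and for the 3 of smallest p and the brightest of each role. The 2 of smallest p are named for each other list. Ttl, Kif5a (1375875_at), Kifc3, Map6, the further probe sets of named genes and other members given by their difference alone were named after their values were seen. Alternatives were other filters (none, or 5), a floor at 3, quantile normalization, median centring, limma's array weights or its trended, robust prior, a replicate block, CA1 markers or beta-actin 3' minus 5' as covariates, dropping members whose ID ends in _s_at or _x_at, and each array left out in turn. Figures were drawn with matplotlib 3.10.9.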

Additional observations from a re-analysis of the deposited data

Results flagged for a closer look

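In 20 of 162 groups of 7 rats (12.3%), counting each tested member in each group, the highest or lowest rat stood apart from the others by Dixon's criterion. Chance flags about 1 in 20 groups, and over all tested probe sets the share was 12.6% of 18774 groups. Control rat 6 accounted for 5 of the 20, learning rat 3 for 4 and control rat 4 for 3.

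Control rat 6 was low in Tubb5 (1370290_at) at 8.19, in Actr1b (1373792_at) at 7.99 and in Dync1i2 at 7.84, and high in Kif26b (1376617_at) at 9.39 and in the dendritic gene Map2 (1388152_at) at 12.7. Learning rat 3 was high in Kifc3 at 7.44 and in Kif12 at 6.30, and low in Kif3c (1369637_at) at 9.18 and in Kif26b (1376617_at) at 8.41. Control rat 4 was low in Kif2c at 4.29 and in Kif12 at 5.13, and high in the plus-end polymerase gene Ckap5 at 8.80.

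The others were spread over more rats. Control rat 1 was high in Tubb4b at 11.6 and in the dynein intermediate chain gene Dync1i1 at 10.3, control rat 2 was high in Dync2i1 at 5.94, and control rat 5 was low in Kif26b (1374246_at) at 7.68. Learning rat 2 was low in Klc1 (1370886_a_at) at 11.7 and in Pafah1b1 (1387807_at) at 6.95. Learning rat 5 was low in Mapre1 (1370792_at) at 7.65, and learning rat 7 was low in Tubgcp4 at 5.23.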

How the results depend on the processing

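No member passed an adjusted p of 0.05 under any alternative or left-out array (limma). Over all tested probe sets that count was 0, and 0 to 1 with an array left out: it was 1 without control rat 6, without learning rat 1 or without learning rat 4. Members at an unadjusted p below 0.05 numbered 13, with 11 to 15 when an array was left out and 13 to 18 under the other settings. Below 0.01 the range was 5 to 9 with an array left out and 4 to 6 under the other settings. The higher ones ranged from 8 to 10 and the lower ones from 3 to 6 with an array left out, and array weights gave 7 lower in place of 4. The groups were apart in 2 members, in 1 with median centring (Ckap5) and in 2 to 4 with an array left out, against 0.405%, 0.3196% and 0.447% to 0.906% of all tested probe sets. The share of all tested probe sets at an unadjusted p below 0.05 was 10.1% to 14.7% with an array left out and 9.30% to 14.96% under the other settings, and with an array left out the members' median difference was 0.0027 to 0.033.

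Replicate numbers were not taken as pairs, and whether they mark pairs was not tested. Same-numbered arrays correlated from -0.28 to 0.26, 4 of 7 over 0.1. Of the control arrays, 4 of 7 correlated best with the learning array of their own number. The labels do not say that a number marks a shared batch. With the replicate number as a block 15 members had an unadjusted p below 0.05, 10 higher and 5 lower, and none passed the adjusted threshold.

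Of 81 members, 56 kept their sign throughout and 25 did not; none of these had an unadjusted p below 0.05. With CA1 markers as covariate the sign turned for Actr1b (1373792_at) to -0.0031, Dync2h1 (1368676_at) to 0.0052, Kif26b (1376617_at) to 0.025, Kif2a (1371125_at) to 0.065, Kifbp (1373809_at) to -0.040, Klc4 (1372328_at) to -0.019, Map1b (1371003_at) to 0.16, Map1b (1373363_at) to 0.0010, Map4 (1371607_at) to -0.037 and Map6 (1371087_a_at) to -0.0056. With beta-actin it turned for Dctn1 (1367848_at) to 0.0026, Dync2h1 (1368676_at) to 0.021, Kif26b (1374246_at) to -0.012, Kif3c (1387657_at) to 0.015, Klc1 (1388125_a_at) to 0.063, Map1b (1373363_at) to 0.035, Map6 (1371087_a_at) to -0.030, Mapre1 (1373397_at) to -0.033 and Pafah1b1 (1387807_at) to -0.014. Array weights turned Kifbp (1373809_at) to -0.017 and Mapre1 (1373397_at) to -0.023, quantile normalization Kifbp (1373809_at) to -0.0077 and Map4 (1373268_at) to -0.00017, and median centring Mapt (1368137_at) to 0.0014. The cause was not tested.

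With an array left out, the sign turned in at least 1 case for 22 members, whose differences then ran as follows: Actr1b (1373792_at) -0.0014 to 0.087, Dctn1 (1367848_at) -0.052 to 0.0095, Dync2h1 (1368676_at) -0.058 to 0.038, Dync2i1 (1373192_at) -0.089 to 0.015, Dynll2 (1387782_at) -0.20 to 0.010, Kif26b (1374246_at) -0.012 to 0.15, Kif2a (1371125_at) -0.13 to 0.0019, Kif3a (1377025_at) -0.036 to 0.060, Kifbp (1373809_at) -0.038 to 0.064, Klc1 (1388125_a_at) -0.12 to 0.021, Klc2 (1373125_at) -0.057 to 0.00036, Klc4 (1372328_at) -0.014 to 0.072, Map1b (1371003_at) -0.16 to 0.059, Map1b (1373363_at) -0.044 to 0.020, Map2 (1368411_a_at) -0.043 to 0.18, Map4 (1373268_at) -0.077 to 0.091, Map6 (1371087_a_at) -0.028 to 0.083, Map6 (1376907_at) -0.046 to 0.0094, Mapre1 (1373397_at) -0.039 to 0.034, Mapt (1368137_at) -0.065 to 0.059, Pafah1b1 (1387807_at) -0.027 to 0.074 and Tuba4a (1371542_at) -0.0014 to 0.054. Why these signs turned was not tested. As general limits, GCRMA compresses differences near background, and 7 arrays a group limit the precision.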
